A study of Bos grunniens with 6 samples.

Results

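Among the m6A peaks called in cattle-yak testis, 352 of 16186 (2.17%) spanned more than 50000 bp from their start to their end on the genome. They were chosen by that width alone, whatever their annotation class, expression or gene. They lay on 341 of the 8986 gene ids that carried a peak, and 332 gene symbols were attached to them. These peaks accounted for 34.0% of the summed genomic length of all peaks. Width here is the genomic distance between the outer ends, introns included, so that it is no measure of how many bases were methylated.

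The series comprised 3 cattle-yaks, the hybrid of yak and cattle in which males are sterile, all 5 years old and without any treatment or genotype contrast. Testis poly(A) RNA from each animal (TES5, TES6 and TES7) gave an anti-m6A immunoprecipitated library and an input library, 6 libraries in all. Peaks were available as 1 list for the 3 animals together, with no score and no value per animal, while expression was available as FPKM in each of the 3 input libraries. No parental species or fertile control was analysed here, so that nothing below compares the hybrid with another animal.

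N6-methyladenosine is deposited on RNA by a nuclear complex built around METTL3 and METTL14, is removed by the demethylases FTO and ALKBH5, and is bound by reader proteins that act on splicing, export, translation and decay. The mark is added largely while transcription is under way. In mature mRNA it is best known around the stop codon and in long internal exons, and in the testis it is known for its part in spermatogonial maintenance and meiosis. Antibody-based maps report intervals of enrichment, not single adenosines.

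The tissue label was checked against marker genes, using the symbols that the peak list supplies. The Sertoli cell factors SOX9 (26.7, 27.5 and 28.4 FPKM in TES5, TES6 and TES7) and WT1 (24.0, 33.3 and 31.5 FPKM) were present, as were STAR of Leydig cells (100, 108 and 112 FPKM) and the meiotic gene SYCP3 (24.4, 18.0 and 19.8 FPKM). None of the 10 spermatid markers had a symbol in the list, so their level was not analysed here. Among all markers of somatic and germ cells examined, only the spermatocyte gene SYCP1 carried a peak over 50 kb.

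The widths ran from 50035 to 540859 bp, with quartiles of 59907, 77154.5 and 109938 bp. Most peaks sat near the lower limit, 247 of them at 100000 bp or less, while 105 exceeded 100000 bp, 23 exceeded 200000 bp and 7 exceeded 300000 bp. The limit itself marked no gap. Just inside it were peaks on MAN1A1 (50055 bp), SLMAP (50049 bp) and the Hippo pathway coactivator YAP1 (50035 bp), and just outside it were peaks on SCLT1 (49994 bp), RGMA (49883 bp) and MARCHF8 (49763 bp).

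**Figure D1:**
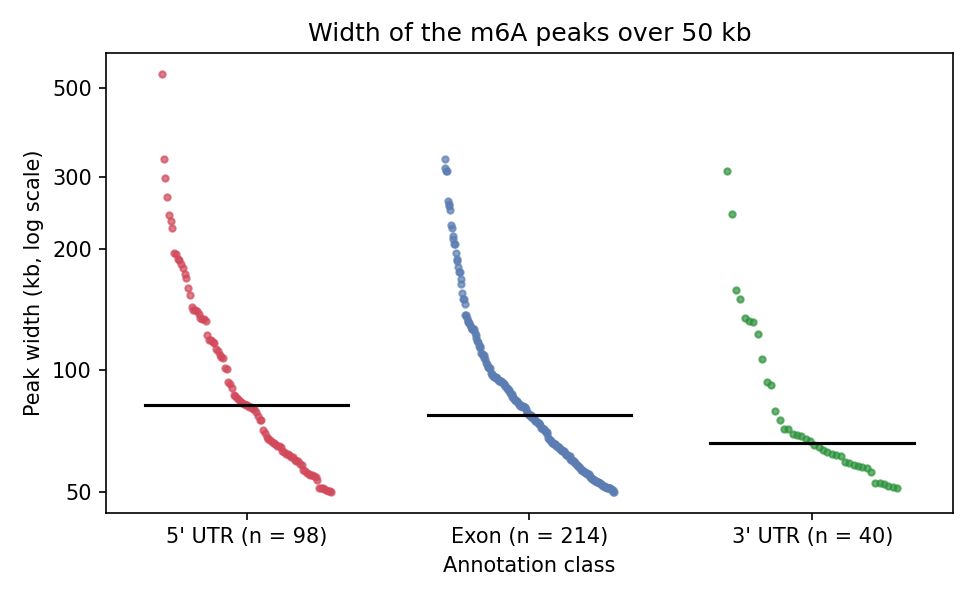
Width of each of the 352 peaks in kb on a log scale, by annotation class. Points within a class are in order of width, and horizontal lines are class medians, of 81976.5 bp for 5′UTR peaks, 77569.5 bp for exon peaks and 65905 bp for 3′UTR peaks.

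The widest peaks fell on genes of quite different function. The longest, at chr22:63169878-63710736 on the yak assembly LU_Bosgru_v3.0, was assigned to the 5′UTR of RBMS3, which encodes an RNA-binding protein, and reached 66.3% of the way along a transcript of 815192 bp. Next came a 5′UTR peak of 332623 bp on the α-catenin gene CTNNA2 (chr9:78701803-79034425), which has the longest listed transcript of the set at 1508046 bp and was covered only to 22.1% of its span. A peak of 332153 bp annotated to exon 1 of 23 under the symbol MYL10 began at the transcript's first base and ended at 79.4%. TIMP3, encoding an inhibitor of matrix metalloproteinases, carried a 3′UTR peak of 311133 bp (chr5:33080329-33391461) although its listed transcript spans only 62035 bp. The peak of 311063 bp on EXT1, a heparan sulfate polymerase, ran from 0.111% to 86.8% of its transcript.

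Further peaks of this size belonged to VTI1A (298544 bp), a SNARE of the Golgi and endosomes, to DYNC1I1 (268034 bp), an intermediate chain of cytoplasmic dynein, and to DDX10 (261674 bp), a DEAD-box RNA helicase. The DYNC1I1 peak started at 0.00923% of the transcript and the DDX10 peak at 22.6%. The peaks on MAML3 (316622 bp) and TNIK (311559 bp) are described with the short gene models, since each was larger than the transcript it was listed on.

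None of the peaks over 50 kb overlapped another of them, and together they covered 34.3 Mb. They were found on 31 chromosomes. Among the 30 chromosomes with at least 100 peaks, the share of peaks that were this wide had a median of 2.12% and ranged from 0.758% on chromosome 29 to 4.61% on chromosome 21. The X chromosome held 9 of its 534 peaks in this width range and the Y chromosome 1 of 96, a 5′UTR peak of 112995 bp on an id named SRY, the sex-determining gene. Only 12 wide peaks overlapped another listed peak, and 11 of these enclosed 1 or more narrower peaks completely. The gene of the RIO kinase RIOK1 had 4 such enclosed peaks, as did the zinc finger gene ZNF444.

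The annotation classes of the wide peaks differed from those of other peaks on listed transcripts over 50 kb. Of the 352 peaks, 98 had the label 5′UTR (27.8%, 95% Wilson interval 23.4 to 32.7), 214 the label exon (60.8%, 55.6 to 65.8) and 40 the label 3′UTR (11.4%, 8.46 to 15.1). The 6514 other peaks on listed transcripts over 50 kb were 7.49% 5′UTR, 73.0% exon and 19.5% 3′UTR. The 5′UTR share was therefore 20.3 percentage points higher (95% Newcombe interval 15.9 to 25.3), the 3′UTR share 8.12 points lower (−11.2 to −4.26) and the exon share 12.2 points lower (−17.5 to −7.16). These intervals cover counting error only, since peaks are not replicates and the list used here holds no value per animal. The sets were not matched in length, as 48 of the wide peaks had a listed transcript of at most 50000 bp. With both sets on transcripts over 100000 bp, a choice made after seeing the data, the 5′UTR share was 23.2% (55 of 237) against 7.11%, a difference of 16.1 points (11.1 to 21.9).

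Part of the 5′UTR excess lay outside the transcripts named in the list. When wide and other peaks were both restricted to those wholly inside their listed transcript, a choice made after seeing the data, the 5′UTR share was 19.2% (49 of 255) against 6.73% and the difference was 12.5 points (8.08 to 17.8). The exon shares were then 71.8% and 74.4%, a difference of −2.61 points whose interval (−8.52 to 2.68) included 0. The 3′UTR share remained lower by 9.88 points, at 9.02% against 18.9%. ChIPseeker, which the authors used to annotate, gives each interval 1 class. By its default order an interval that touches several features is labelled 5′UTR before 3′UTR and 3′UTR before exon. Whether that order was kept is not given in the sources used here, and its part in these shares was not tested.

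The 5′UTR class also varied with width among long genes. On listed transcripts over 100 kb, its share was 8.36% among peaks of at most 1 kb, 4.03% at 1 to 5 kb, 3.75% at 5 to 10 kb and 9.93% at 10 to 50 kb. It was 17.2% (12.1 to 23.9) at 50 to 100 kb and 35.0% (25.5 to 45.9) above 100 kb, so that these last intervals did not overlap. The 3′UTR share went the other way, from 26.2% among the narrowest peaks to 10.2% and 5.00% in the widest classes.

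**Figure D2:**
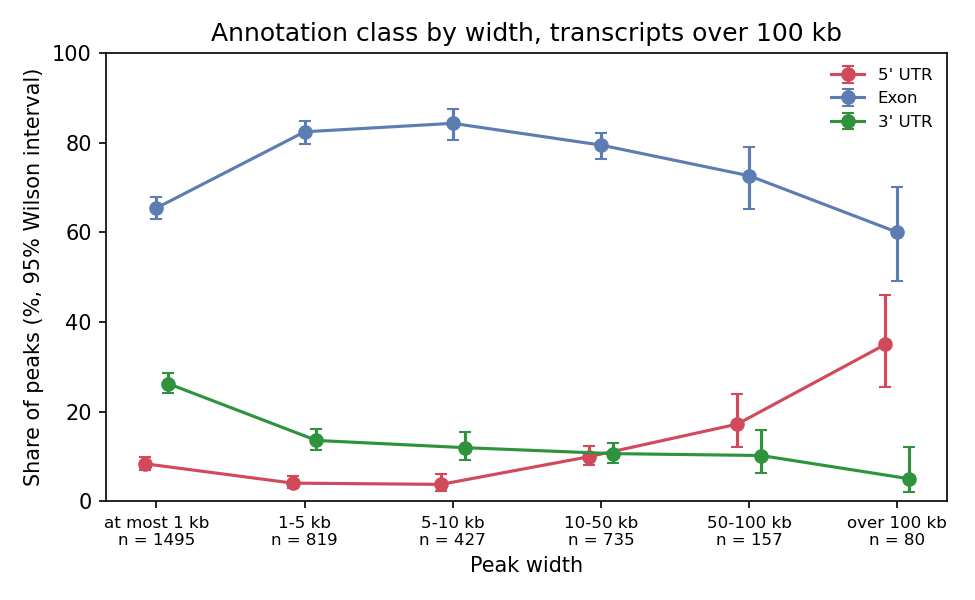
Share of peaks in each annotation class (percent, with 95% Wilson intervals) against peak width, for peaks on listed transcripts over 100 kb. The 5′UTR share lies between 3.75% and 9.93% up to 50 kb, and is 17.2% and 35.0% in the last width classes, where it passes the 3′UTR share.

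The position of the wide peaks could be read along the transcript for the 255 peaks (72.4%, 67.6 to 76.8) that lay wholly inside it. Their starts had a median of 17.3% of the genomic span (quartiles 0.470% and 45.0%) and their ends a median of 79.9% (60.0% and 96.3%), counted from the 5′ end. The median peak covered 46.5% of its transcript, 118 covered more than 50% and 24 more than 90%. The remaining 61 peaks reached past an end of the transcript, 35 contained it entirely and 1, on RASSF10, did not touch it.

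Classes differed in where along the gene they lay. The 49 5′UTR peaks inside their transcript started at a median of 0.504% and ended at 66.8%. The 183 exon peaks ran from 28.5% to 79.4% and the 23 3′UTR peaks from 45.9% to 99.3%, again as medians. A 5′UTR label on these peaks thus stood for an interval that in the median covered 61.6% of the gene, not for a signal limited to the untranslated region.

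**Figure D3:**
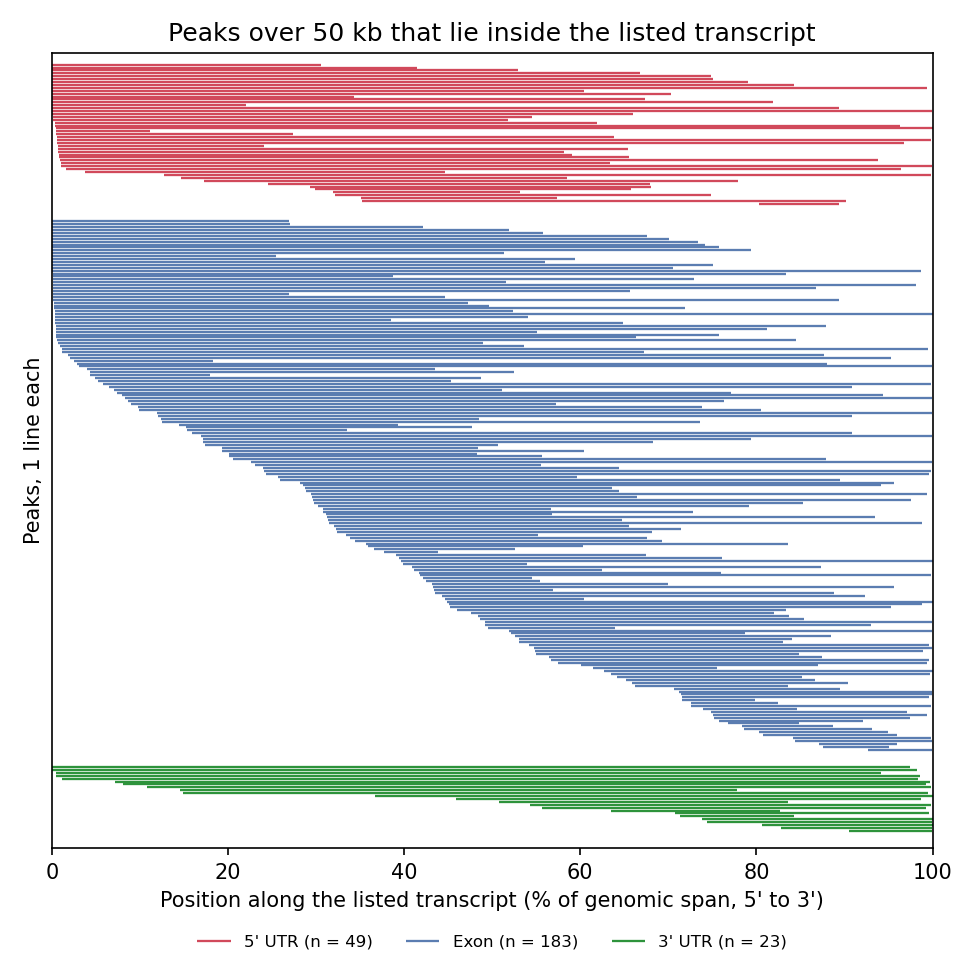
Extent of the 255 peaks that lay inside their listed transcript, as percent of its genomic span from the 5′ to the 3′ end. Each line is 1 peak, coloured by annotation class. Most 5′UTR peaks begin at the left edge, with a median start of 0.504%, and the 3′UTR peaks have a median end of 99.3%.

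Alignment to the 5′ end of the transcript was more frequent than among other peaks on long transcripts. In 94 of the 352 wide peaks (26.7%, 22.4 to 31.6) the start lay within 1000 bp of the transcript's 5′ end, against 8.29% of the others, a difference of 18.4 points (14.0 to 23.3). These 94 were not all labelled 5′UTR, since 44 had the 5′UTR label, 44 the exon label and 6 the 3′UTR label. Alignment to the 3′ end was less frequent, with 48 wide peaks (13.6%) ending within 1000 bp of it against 25.0%, a difference of −11.4 points (−14.7 to −7.24). The width rule fixes part of this geometry, so both differences are descriptions only. The sets were also unlike, since 48 wide peaks had a listed transcript of at most 50000 bp. The whole listed transcript lay inside 35 wide peaks and 0 of the others. Both ends were matched in 10 peaks. The peak of 118460 bp on PTN, which encodes the growth factor pleiotrophin, is an example that filled the gene from 0.455% to its last base.

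The exon numbers attached to the exon class were more often early ones than among other peaks on long transcripts. Among the 201 exon peaks on transcripts with at least 3 exons, 41 named the first exon (20.4%, 15.4 to 26.5) against 6.99% of the 4636 comparable peaks on long transcripts, a difference of 13.4 points (8.36 to 19.6). If every exon of these transcripts were named equally often, the first would be named in 9.30% of the wide peaks. Exons 1 to 3 were named by 107 of the wide peaks (53.2%) and 21.3% of the others. The last exon was named by 1 wide peak (0.498%, 0.0879 to 2.76), against 8.54% of the others. Each interval names only 1 exon, however many it spans. Of all 214 exon peaks, 26 ended within 1000 bp of the transcript's 3′ end. The DDX10 peak, which reached 99.99% of its transcript, named exon 13 of 19. The named exon is therefore no measure of where a wide peak lies, and the part of this labelling in the shares was not tested.

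The genes were long and, in the exon class, had few exons for their length. A width over 50000 bp with introns included favours such genes by the rule itself, so these values are descriptions only. The listed transcripts of the wide peaks had a median span of 147374 bp (quartiles 81029.8 and 267975), against 105908 bp for other peaks on transcripts over 50 kb and 35918 bp for all other peaks. In the exon class the median number of exons was 12 for wide peaks and 19 for the others on long transcripts, and the median span per exon was 15740 and 5707 bp. Width was only loosely related to gene length, with a Spearman's rho of 0.217 and a Pearson's r of log values of 0.051 across the 352 peaks. Across the 255 inside their transcript, the values were 0.367 and 0.394. These points share a peak caller and a gene annotation, and a peak inside a transcript cannot exceed it.

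Most of these genes carried further, narrower peaks. A wide peak was the sole peak on 124 of the 341 genes (36.4%, 31.4 to 41.6), while 95 genes had 2 peaks in all and 122 had 3 or more. Among 2880 other genes with a listed transcript over 50 kb, 41.8% had a single peak, and the difference of −5.48 points had an interval (−10.7 to 0.0524) that included 0. RIOK1 had the most peaks, 12, followed by the chromatin regulators ASH1L and CHD9 with 9 each and the zinc finger gene ZNF407 with 8.

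Several wide peaks shared a gene in 10 cases. TMTC2, a transmembrane protein of the endoplasmic reticulum, had 3, which spanned 0.0182% to 34.4% (5′UTR, 188784 bp), 42.5% to 55.5% (exon 4 of 13, 71366 bp) and 71.3% to 84.3% (3′UTR, 71638 bp) of its transcript. Its FPKM was 7.04, 8.33 and 7.09. The Hedgehog transcription factor GLI3 had a 5′UTR peak of 101466 bp over the first 30.5% and a second of 74149 bp at exon 7 of 17, from 74.8% to 97.1%, at an expression of only 1.18, 1.82 and 1.67 FPKM. On ARHGAP26, a GTPase-activating protein, peaks of 175211 and 80132 bp named exons 7 and 19 of 23. Genes with paired wide peaks thus included weakly expressed ones, the lowest being CCDC91 at 0.847, 0.904 and 0.951 FPKM.

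The other genes with 2 wide peaks were FTO, ERC1, SCAPER, SDCCAG8, MIPOL1 and CADPS2. The pair on ERC1, a scaffold protein of the presynaptic active zone, extended from 0.0785% to 38.7% and from 45.6% to past the 3′ end at 108%. On SDCCAG8, a centrosome and cilium gene, they covered 33.9% to 67.6% and 71.2% to nearly the end, so that between them the peaks took up most of the second part of the gene.

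Expression of the genes with a wide peak was moderate and much like that of other long genes with a peak. For the 336 genes with an FPKM value the median was 5.83 in TES5, 6.21 in TES6 and 5.97 in TES7 (6.0 ± 0.188, SD, n = 3 animals). The 8439 other genes with a peak had medians of 7.29, 7.35 and 7.36 FPKM, above the wide-peak genes in each animal. The 2840 other genes with a peak on a transcript over 50 kb had 5.88, 6.26 and 6.32 FPKM (6.15 ± 0.241). In whole testis, fewer cells of a type and less RNA per cell cannot be told apart in such values.

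On the log2(FPKM + 1) scale the difference in medians from all other genes with a peak was −0.28, −0.21 and −0.26 (−0.25 ± 0.034), lower in 3 of 3 animals. Against the other long genes it was −0.01, −0.01 and −0.07 (−0.03 ± 0.035). An exact two-sided sign-flip permutation test over the 3 animals gave p = 0.25 for both, the smallest value that 3 animals allow, so neither could pass a threshold of 0.05. The second difference changed sign among the 244 genes whose wide peak lay inside the listed transcript, where it averaged 0.095. Their medians were 6.37, 6.76 and 6.78 FPKM.

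**Figure D4:**
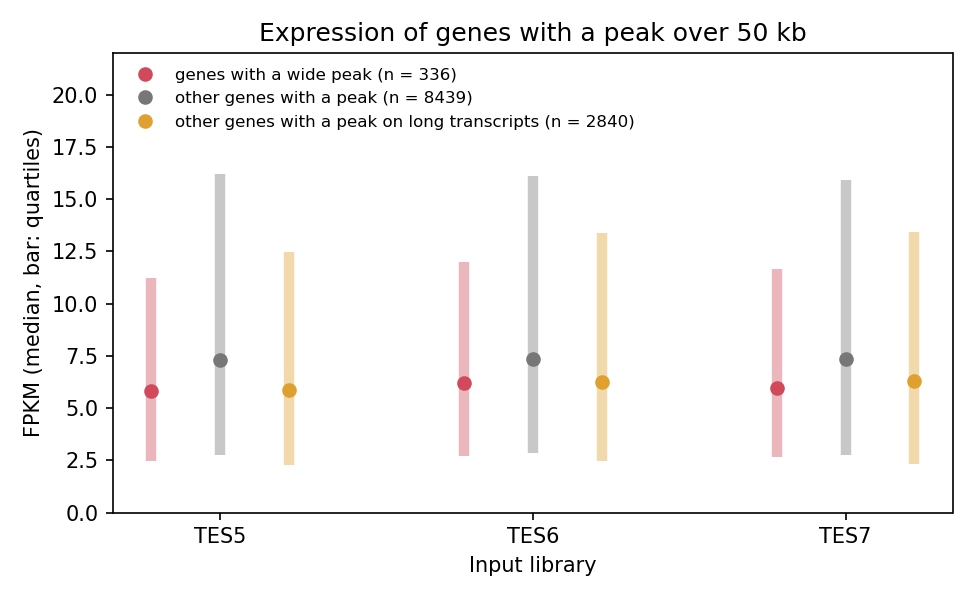
FPKM in each input library for genes with a peak over 50 kb, all other genes with a peak, and the subset of the latter on listed transcripts over 50 kb. Points are medians over genes and bars run between the quartiles. In TES5 the medians are 5.83, 7.29 and 5.88 FPKM.

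Detection was common, with 291 of the 336 genes (86.6%) at 1 FPKM or more in all 3 animals, against 87.0% of other genes with a peak and 86.1% of those on long transcripts. A mean of 10 FPKM or more was reached by 100 genes (29.8%), against 40.1% and 33.4%. At the low end, 38 genes had a mean under 1 FPKM, and 17 of these were listed at 0 in every animal. The coefficient of variation between animals had a median of 12.1%, against 11.5% and 12.0% in the other sets. Width and mean FPKM were almost unrelated across peaks (rho = −0.067 over 347 peaks).

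The most abundant transcripts with a wide peak came from PTN (181, 194 and 174 FPKM), ARMH4 (153, 179 and 184), the amyloid precursor gene APP (140, 160 and 185), TIMP3 (89.4, 96.2 and 112) and KMT2C (88.4, 91.1 and 101), a histone H3 methyltransferase gene. The ARMH4 peak of 137267 bp covered the transcript from 12.0% to its end, and the APP peak of 84965 bp ran from 65.9% to 90.4%. The KMT2C value belongs to an id whose listed transcript of 35417 bp is smaller than its peak of 109275 bp.

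Differences between animals were largest, among genes with a mean of at least 10 FPKM, for a set that included ART3, PLCL2, GKAP1 and SLC7A2. ART3, of the ADP-ribosyltransferase family, stood at 24.7, 15.1 and 14.8 FPKM, and GKAP1, which encodes a protein that anchors cGMP-dependent kinase, at 22.7, 18.1 and 13.8 FPKM. TES5 was the high animal for both. The spermatocyte markers with a value, 6 ids of 4 symbols with none at 0, summed to 64.0, 38.9 and 48.5 FPKM and were highest in TES5 for 4 ids and in TES6 for 2. Their part in these differences was not tested. For the arginine and lysine transporter gene SLC7A2 (8.34, 13.7 and 12.6 FPKM), TES5 was the low one. PLCL2 had 118, 79.0 and 70.4 FPKM, but its listed transcript spans just 264 bp and its FPKM is divided by that short length.

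The genes were next grouped by function, in lists that had been drawn up with earlier results of these data known. For comparison, 332 of all 7802 symbols with a peak (4.26%) had a peak over 50 kb, and these were 332 of the 3076 symbols with a peak on a transcript over 50 kb or a wide peak. Counted as those 3076 were, the lists held 38 RNA-binding, 63 kinase and phosphatase, 81 transcription and chromatin, 48 cytoskeletal and 30 adhesion symbols. They also held 51 GTPase regulator, 50 ubiquitin, 42 matrix and receptor, 20 meiosis and germ cell and 6 m6A machinery symbols. The list counts that follow are descriptions and were not tested. They are out of symbols with a peak on a transcript of any length. Outside the m6A machinery, most list symbols with a peak were among the 3076, so 332 of 3076 is the nearer comparison.

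Among RNA-binding regulators, 7 of 48 symbols with a peak had a wide one. Besides RBMS3 (1.41, 1.57 and 1.21 FPKM) they were MSI2, QKI, MBNL1, MBNL2, RBFOX2 and TNRC6A. QKI, a splicing and RNA stability factor, was the most abundant at 35.4, 35.9 and 36.7 FPKM, and its 5′UTR peak of 134384 bp (chr10:101249296-101383679) began at the transcript's start and reached 74.0%. The Musashi gene MSI2 had 174576 bp from exon 1 of 10 to 51.3% of the gene, and 4.14, 4.79 and 5.67 FPKM. For the splicing regulators RBFOX2 (87074 bp) and MBNL2 (61495 bp) the named exon was also the first and the peak began at the first base of the transcript. TNRC6A, an Argonaute partner in microRNA silencing, had a peak of 57520 bp at exon 2 of 25 that began at 0.402%.

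Kinases, phosphatases and their regulators gave 12 of 68 symbols. PPM1L, a metal-dependent phosphatase gene, carried 254982 bp, and its FPKM was 7.13, 11.0 and 9.70. That peak reached upstream of the listed transcript, and the exon it was annotated to belongs to another gene id at 0 FPKM in every animal. STK3, the mammalian Hippo kinase, had 149874 bp in the 3′UTR class over the last part of the gene, from 54.3% to 99.9%, with 11.7, 14.1 and 11.8 FPKM. GSK3B, a kinase of Wnt and insulin signalling, had 122477 bp in the 5′UTR class, with 11.8, 12.2 and 12.7 FPKM.

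In the list of transcription and chromatin genes, 13 of 84 symbols had a wide peak, among them the histone-reading PHF21A (133890 bp, 5′UTR, 8.05, 10.8 and 10.2 FPKM) and BPTF (90206 bp, 5′UTR, 9.02, 13.0 and 12.6 FPKM). Both peaks began at the start of the gene, at 0% and 0.0731%. The Notch coactivator gene MAML2 had 127984 bp at exon 2 of 5 over 1.82% to 87.7% of its transcript, at 0.564, 0.658 and 0.619 FPKM.

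Cytoskeletal and cell adhesion lists gave 9 of 49 and 5 of 31 symbols. Actin-related members included the crosslinker ACTN1 (81143 bp, 5′UTR, 7.78, 10.5 and 10.7 FPKM), the unconventional myosin MYO10 (63503 bp), and the formins DAAM1 (59814 bp) and FHOD3 (63084 bp). DAAM1 was among the steadiest, at 11.2, 11.1 and 10.7 FPKM. Next to CTNNA2 (7.10, 6.39 and 7.02 FPKM), the adhesion members comprised the polarity gene PARD3B (194983 bp at exon 19 of 23), the receptor phosphatases PTPRM and PTPRD, and the tight junction scaffold MAGI1 (53930 bp at exon 12 of 24). Their peaks lay far from the 5′ end in PARD3B, PTPRD and MAGI1, starting at 75.1%, 70.7% and 87.6%.

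GTPase regulators gave 6 of 53 symbols, led by SRGAP1, a GTPase-activating protein of Slit-Robo signalling. Its 5′UTR peak of 234078 bp covered the first 70.3% of the gene, and its FPKM was 7.10, 9.76 and 10.4. Ubiquitin genes gave 3 of 52, the F-box gene FBXL17 (211629 bp at exon 7 of 9) and the conjugating enzymes UBE2K (52061 bp) and UBE2H (50488 bp). Matrix and receptor signalling gave 3 of 47. There the insulin-like growth factor receptor gene IGF1R had 205746 bp (chr17:6798033-7003778) at exon 2 of 21, from 17.1% to 79.4%, at 23.8, 25.2 and 24.6 FPKM, and the basement membrane collagen gene COL4A2 had 65709 bp at 11.4, 10.1 and 9.89 FPKM.

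The m6A machinery itself was represented by FTO and ZC3H13, 2 of its 14 symbols with a peak. FTO, the first known RNA demethylase of this mark, had a 5′UTR peak of 141179 bp (chr20:25831719-25972897) that crossed the start of its listed transcript, and another of 63911 bp at exon 6 of 9. The 5′UTR peak lay inside the longer FTO transcript listed with the other peak, chr20:25502906-25975512. Expression of FTO was 5.82, 5.24 and 5.43 FPKM. ZC3H13, a component of the methyltransferase complex, had a 3′UTR peak of 63579 bp over the last part of the gene, from 36.7% to its end, with 12.9, 14.8 and 16.3 FPKM.

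Meiosis and germ cell genes gave 2 of 28 symbols. SYCP1, which forms the transverse filaments of the synaptonemal complex, had 56431 bp at exon 14 of 33 and 6.71, 4.76 and 4.85 FPKM, highest in TES5. SPATA16, a gene of acrosome formation, had 51311 bp in the 3′UTR class over the last part of its transcript from 82.8%. Its FPKM of 11.5, 5.79 and 1.68 was the most uneven of the genes plotted by list, with TES7 far below TES5. The summed spermatocyte markers, SYCP1 among them, were also highest in TES5, at 64.0 FPKM against 38.9 in TES6 and 48.5 in TES7, and their part in the values of both genes was not tested.

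**Figure D5:**
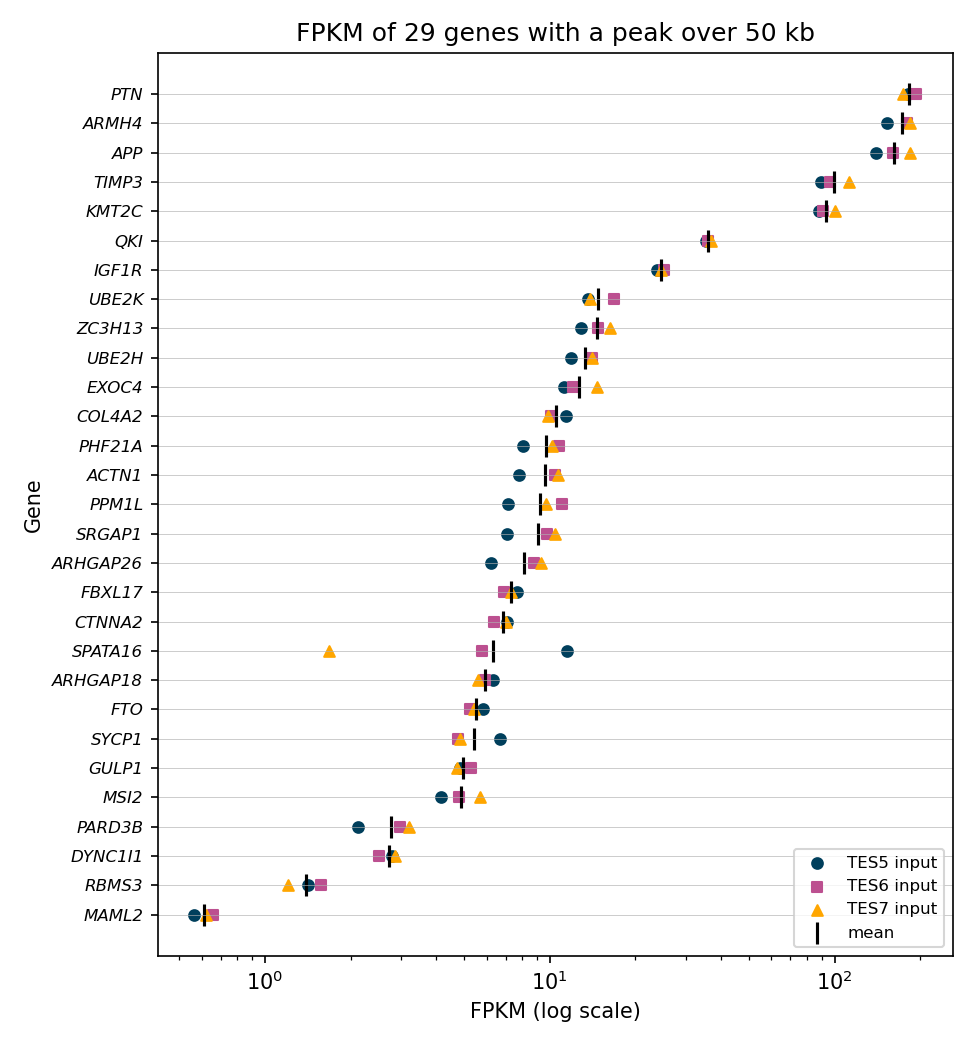
FPKM in the 3 input libraries (log axis) for 29 genes with a peak over 50 kb, drawn from up to 3 genes of each functional list in order of width and the 5 genes with the highest mean, without those listed at 0. Ticks are means over the animals. The values run from under 1 FPKM for MAML2 to 181, 194 and 174 FPKM for PTN, and SPATA16 is the most spread, from 1.68 to 11.5 FPKM.

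In 35 of the wide peaks (9.94%, 7.24 to 13.5) the whole listed transcript lay inside the peak, and these gene models were short, with a median span of 1287 bp. Of their 33 genes with an FPKM the median was 0 in every animal, since 16 were listed at 0. Among the 35 peaks, 20 had a symbol that another id with a peak also carried, and 21 lay inside the listed transcript of another id. The Notch coactivator gene MAML3 and the kinase gene TNIK are the largest examples. The MAML3 peak was listed on a 1251 bp transcript at 0 FPKM, while the exon it was annotated to belongs to another id with 2.80, 3.89 and 4.17 FPKM. For TNIK, whose listed transcript spans 1917 bp, the id of the exon had 11.6, 16.5 and 14.3 FPKM.

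Such mismatches were not limited to the contained transcripts. An exon of a different gene id was named in 14 of the 214 exon peaks (6.54%, 3.94 to 10.7), against 4.08% of exon peaks on other long transcripts, and the intervals overlapped. In 11 of the 14 the exon's gene was at 1 FPKM or more in all animals, and in 8 the listed gene was at 0. The exon's gene had the same symbol in 7. Examples with the listed id at 0 were PPHLN1 (5.08, 5.25 and 4.17 FPKM for the exon's gene), NCOA7 (12.7, 14.1 and 13.0) and the nucleolar gene ESF1 (10.2, 8.26 and 8.41). In these examples an FPKM of 0 beside a wide peak was thus a value of a short gene model, and the peak's exon belonged to an expressed gene. That did not hold for all 8. For EGLN1, with a listed transcript of 10562 bp, the exon's gene had only 0.413, 0.370 and 0.326 FPKM. For NTNG1 it had 0.979, 1.58 and 1.24 FPKM. Of the 17 genes listed at 0 in every animal, only these 8 named an exon of another gene id.

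The 61 peaks that were partly outside their transcript extended by a median of 47814 bp beyond it, 49 past its 5′ end and 12 past its 3′ end. Outside refers here to the 1 transcript listed with the peak, not to the gene. The peaks on FTO and CADPS2, for example, lay inside another listed transcript of the same gene id. How many others did so was not counted. Of the 41 in the 5′UTR class, 38 went past the 5′ end, as on MBNL1 (131981 bp, taking in the first 44.9% of the transcript and the region upstream of that transcript), ART3 and UBE2H. The UBE2H peak overlapped only the first 0.111% of the listed transcript. On the 3′ side, 8 of the 10 partly outside in the 3′UTR class went past the 3′ end, as on ERC1 and the cell surface receptor gene CD44. In addition, 1 wide peak, on DEK, enclosed the whole listed transcript of another gene, the histone demethylase gene KDM1B.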

How the data were processed

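The tables deposited by the authors were made from anti-m6A and input sequencing of testis RNA of 3 cattle-yaks. Per the labels and methods, reads were trimmed with Trimmomatic and aligned with HISAT2 2.0.4 (version from the submitters' processing notes), peaks were called with MeTDiff from immunoprecipitated against input reads, and peaks were annotated with ChIPseeker on LU_Bosgru_v3.0. MeTDiff scans joined exons, so a peak's genomic ends can enclose introns. The exon blocks were not analysed here, and no sequence is shown because no genome of this build was used. Other than positions, the deposited peak list holds base-pair widths, classes and transcript coordinates, with no score.

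Expression was deposited as FPKM for 20953 genes in each input library and is normalised to length and library size. The program behind these values is not given in the sources used here, and their decimals did not resolve into whole reads, so the depth behind each value could not be read from them and no count model was used. Sequencing yields that the study states were not used here. The study's methods describe peak calling in each sample, whereas the deposited list is 1 for the group. The animals are separate, and n refers to animals.

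Widths over 50000 bp defined the members. Peaks were placed along the listed transcript in its strand direction, and shares were compared with those of other peaks on listed transcripts over 50000 bp by Wilson and Newcombe 95% intervals, which cover counting error only. Expression medians were compared per animal on log2(FPKM + 1), with an exact sign-flip test. Alternatives were a threshold of 100000 bp, other overlap and FPKM filters (minimum 1 or 10), a pseudocount of 0.1, rescaling, gene symbols in place of ids, and leaving out each animal. Genes were named by rule, being those of the 10 widest peaks, those with 2 or more wide peaks, those of the 3 peaks on each side of the limit, the 5 with the highest mean FPKM, the 5 with the largest coefficient of variation at a mean of at least 10 FPKM, those at 0, and list members in order of width, up to 8 a list. Genes named for their peak number, their position past a transcript end, their chromosome or their enclosed peaks were chosen after their values were seen. A few genes that this rule names are not reported here. The members and lists were chosen with earlier results of these data known. Computations used matplotlib 3.10.9, SciPy 1.17.1, pandas 2.3.3 and numpy 2.4.6 under Python 3.11.15, and the procedures were tested on simulated data.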

Additional observations from a re-analysis of the deposited data

How the results depend on the processing

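Of 81 alternative values computed for 29 results, 54 were counted as the same as the main value, 26 moved and 1 changed sign. For shares, medians and correlations, the same meant inside the interval of the main value. For counts it meant within a fixed ratio of the main value. For differences in median log2(FPKM + 1) it meant only the same sign, whatever the size of the change. A threshold of 100000 bp left 105 peaks (0.649% of all), with a 5′UTR share of 36.2%, an exon share of 55.2%, a median covered share of 55.1%, a median transcript span of 222325 bp and a median of 10 exons per transcript in the exon class. List counts were then 3 for adhesion, 1 for cytoskeleton, 3 for GTPase regulators, 5 for transcription and chromatin, 4 for RNA binding, 1 for ubiquitin, 1 for matrix and receptors, 0 for meiosis and germ cells and 1 for m6A machinery. The smaller counts follow from the smaller number of peaks. The next 3 settings were chosen after seeing the data. Restricting to peaks inside the listed transcript gave a 5′UTR share of 19.2% and an exon share of 71.8%, with differences from other peaks of 12.5 and −2.61 points. With both sets on transcripts over 100000 bp the exon difference was −6.36 points. For genes with such inside peaks, the difference in median log2(FPKM + 1) from other long genes was 0.095, the change of sign; its cause was not tested. Peaks that overlap without containing the transcript started at a median of 9.41% and gave a rho of width with span of 0.351, and genes at 1 FPKM or more in all animals gave 0.327. A minimum of 10 FPKM gave a median coefficient of variation of 8.68%, and counting by symbol gave 25.0% of genes with a single peak. Without each animal in turn, the difference in median log2(FPKM + 1) lay between −0.27 and −0.24 against all other genes with a peak and between −0.04 and −0.01 against other long genes. At a threshold of 100000 bp these differences were larger, at −0.36 and −0.16, against −0.25 and −0.03 at 50000 bp.

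No paired analysis was possible because peaks were listed once for all animals and FPKM existed for input RNA alone, so that immunoprecipitated and input values of an animal could not be set side by side. With 1 peak list, no peak has an error between animals, and with 3 animals the exact sign-flip permutation test cannot go below p = 0.25. FPKM values without read numbers limit what can be said of low values, and a peak's width does not show which of its bases were enriched.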

Other observations

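Among the genes with a wide peak that had gene ontology terms in the peak list, 143 of 308 (46.4%, 95% Wilson interval 40.9 to 52.0) carried the term for RNA-directed DNA polymerase activity, an enzyme activity known from retroelements. The share was 835 of 2622 (31.8%, 30.1 to 33.7) among other genes with a peak on a transcript over 50 kb. This term was not among the results planned beforehand, and the shares of other terms are not reported here, so the values are descriptions only. Listed transcripts of the wide peaks were longer, as given above, and the part of length in this difference was not tested. The intervals cover counting error only.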
